A study of Mus musculus with 4 samples.

Results

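The genes described are 10 enzymes and receptors of the prostaglandin and cysteinyl leukotriene pathway, taken by symbol from the deposited expression table: *Alox5*, *Alox5ap*, *Ltc4s*, *Lta4h*, *Ptgs1*, *Ptgs2*, *Hpgds*, *Cysltr1*, *Cysltr2* and *Ptgdr2*. All 10 symbols were found among 41079 genes. Lung RNA was sequenced in 4 libraries, 1 per group. The normal WT and normal Rab44-KO libraries are labelled as untreated, although the protocol text carried by every sample also names a PBS challenge. The OVA-induced libraries, 1 WT and 1 Rab44-KO, came from mice given 100 μg ovalbumin with alum into the peritoneum on days 0, 7 and 14, then 100 μg ovalbumin in 50 μL into the nose for 4 days, with lungs taken on day 21. Per the study's methods, the Rab44-KO line was made by CRISPR/Cas9 editing on C57BL/6, both genotypes were female littermates aged 8 to 14 weeks, and the knockout is of the whole animal, not of 1 cell type. How many mice went into a library is not stated. Rab44 is a large Rab GTPase of membrane traffic in granulocytes and mast cells.

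Both branches of the pathway start from arachidonic acid, which phospholipases A2 release from membranes. In the leukotriene branch, 5-lipoxygenase (*Alox5*) works with its activating protein FLAP (*Alox5ap*) to make leukotriene A4, which *Lta4h* turns into the neutrophil attractant leukotriene B4, and which *Ltc4s* joins to glutathione to form leukotriene C4, the parent of the cysteinyl leukotrienes that contract airways and raise vascular leak through *Cysltr1* and *Cysltr2*. In the prostaglandin branch, the cyclooxygenases COX-1 (*Ptgs1*) and COX-2 (*Ptgs2*) make prostaglandin H2, from which hematopoietic prostaglandin D synthase (*Hpgds*) makes prostaglandin D2, a mast cell and macrophage product that attracts eosinophils and Th2 cells through *Ptgdr2* (CRTH2).

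Total counts lay between 18112901 and 19910236 per library, and the 10 genes together took 0.0243% (normal WT) to 0.0333% (OVA-induced WT) of them. *Rab44* itself was counted 251 times in normal and 810 times in OVA-induced WT lung, against 1 and 0 in Rab44-KO lung, as labelled. Lung markers were abundant in every library, with a sum over 6 genes of 41401, 40328 and 40439 CPM in normal WT, normal Rab44-KO and OVA-induced WT lung, and of 31737 CPM in OVA-induced Rab44-KO lung. With 1 library per group there is no replicate error, so no test was run and no difference below has a p-value: each is a difference between 2 libraries. A log2 fold change (log2FC) is the log2 ratio of CPM, which are counts scaled to library depth, here with TMM factors. The range in brackets after it is an exact 95% Clopper-Pearson interval for the counts, which covers counting error only and not differences between mice. In whole lung, fewer cells of a type and less RNA per cell cannot be told apart. Where 4 values of a gene are listed, normal libraries come before OVA-induced ones and, within each, WT before Rab44-KO.

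In the WT libraries, most of the leukotriene synthesis genes and *Hpgds* were higher after OVA induction, and in the Rab44-KO libraries these differences were smaller or near 0 with TMM scaling. In TPM that order holds for *Alox5ap*, *Ltc4s* and *Hpgds*, but not for *Alox5* (log2FC 0.52 in WT and 0.54 in Rab44-KO lung) or *Lta4h* (0.18 and 0.36), and *Ptgs1* was at 0.21 and 0.13. TPM shifts every ratio, by -0.17 in the WT and 0.13 in the Rab44-KO comparison. The medians over all genes in TPM were -0.16 and 0.11. After subtraction of a running median of log2FC along gene length (the length trend), *Alox5ap* was at 0.94 and 0.85, close to each other, and *Lta4h* at 0.23 and 0.37. The plot of CPM by library shows this for each gene. Other patterns stood beside it. *Ptgs2* was highest in the normal Rab44-KO library and lowest in the OVA-induced Rab44-KO library, *Cysltr2* was highest in the normal WT library, and *Cysltr1* and *Ptgdr2* had overlapping intervals in all 4 libraries.

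**Figure D1:**
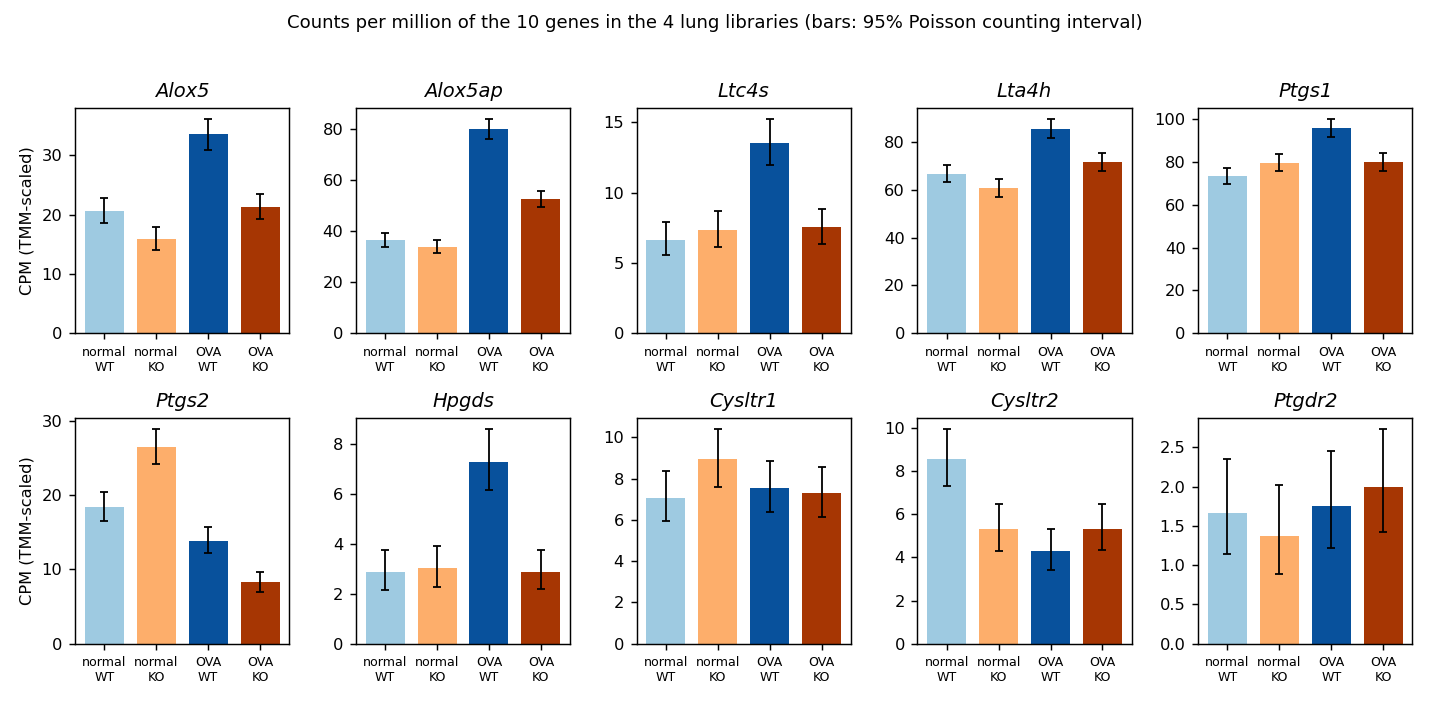
Level of each of the 10 genes in each of the 4 lung libraries, in TMM-scaled CPM (y axis, from 0, on its own scale per gene). Bars are single libraries and error bars the 95% Poisson counting interval. *Alox5*, *Alox5ap*, *Ltc4s*, *Lta4h*, *Ptgs1* and *Hpgds* are highest in the OVA-induced WT library, while *Ptgs2* is highest in the normal Rab44-KO library at 26.5 CPM.

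Levels of different genes were compared in the deposited TPM, which divides counts by gene length. *Alox5ap* was the most abundant of the 10 genes in every library by TPM, at 85.8 in normal and 166 in OVA-induced WT lung, and at 81.0 and 137 in Rab44-KO lung. *Lta4h* (71.1 to 91.5 TPM), *Ptgs1* (35.5 to 43.0), *Ltc4s* (22.6 to 40.6), *Alox5* (12.4 to 22.7) and *Ptgs2* (4.97 to 14.6) followed, in this order but for the normal Rab44-KO library, where *Ptgs2* (14.6) stood above *Alox5* (12.4). *Ptgs1* and *Ltc4s* were neighbours in the OVA-induced WT library, at 41.1 and 40.6 TPM, and so were *Cysltr2* and *Cysltr1* in the normal WT library, at 3.81 and 3.25 TPM. *Hpgds* (1.59 to 3.59 TPM) and *Ptgdr2* (0.870 to 1.39 TPM) were lowest in most libraries. The order depends on the length used: the length behind TPM was 5332 bases for *Ptgs1* and 5794 for *Cysltr2*, against 2867 and 1760 for their longest transcripts in GENCODE M21.

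Promoter windows are shown for 4 genes on which the comparisons turn: *Alox5*, *Ltc4s* and *Hpgds*, which were higher in the OVA-induced WT library than in the other 3, and *Ptgs2*, which had a different order of libraries. Each runs 5′ to 3′ on the gene's strand from 250 bases before to 50 after the RefSeq start (GRCm38.p6), and capitals mark matches to the motifs searched.
Alox5 (chr6:116461129-116461428, minus strand): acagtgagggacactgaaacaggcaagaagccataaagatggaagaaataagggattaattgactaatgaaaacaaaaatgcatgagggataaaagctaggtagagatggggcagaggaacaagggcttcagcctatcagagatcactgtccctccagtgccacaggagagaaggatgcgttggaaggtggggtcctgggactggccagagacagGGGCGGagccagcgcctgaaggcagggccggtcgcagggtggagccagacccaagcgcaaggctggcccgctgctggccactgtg
Ltc4s (chr11:50238483-50238782, minus strand): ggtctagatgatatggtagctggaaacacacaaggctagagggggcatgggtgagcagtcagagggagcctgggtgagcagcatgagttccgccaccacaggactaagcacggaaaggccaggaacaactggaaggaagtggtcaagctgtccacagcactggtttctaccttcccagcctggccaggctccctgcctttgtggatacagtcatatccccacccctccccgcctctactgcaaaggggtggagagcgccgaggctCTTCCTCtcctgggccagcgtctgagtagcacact
Hpgds (chr6:65144681-65144980, minus strand): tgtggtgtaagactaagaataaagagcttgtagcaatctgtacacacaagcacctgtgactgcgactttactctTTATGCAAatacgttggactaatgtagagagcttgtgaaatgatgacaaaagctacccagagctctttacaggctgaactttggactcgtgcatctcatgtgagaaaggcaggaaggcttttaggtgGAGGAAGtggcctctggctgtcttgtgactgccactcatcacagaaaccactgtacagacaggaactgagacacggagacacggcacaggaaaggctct
Ptgs2 (chr1:150099781-150100080, plus strand): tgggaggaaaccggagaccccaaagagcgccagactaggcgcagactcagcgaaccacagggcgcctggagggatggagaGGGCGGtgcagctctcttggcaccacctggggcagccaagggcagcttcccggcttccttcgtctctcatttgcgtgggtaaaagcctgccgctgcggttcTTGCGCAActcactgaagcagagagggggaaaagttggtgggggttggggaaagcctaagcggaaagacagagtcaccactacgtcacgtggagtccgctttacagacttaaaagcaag

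The motifs, searched on both strands, were the GC box GGGCGG, the PU.1-type ETS motif GAGGAAG, the C/EBP motif TTGCNNAA, the GATA motif AGATAA, the STAT motifs TTCNNNGAA and TTCNNNNGAA, the NF-kappaB motif GGGNNTTTCC and the TATA box TATAAA. *Hpgds* and *Ltc4s* share a GAGGAAG match, at 49 bases before the start in *Hpgds* and on the other strand at 16 bases after it in *Ltc4s*. Of 32851 mouse promoter windows of this length, 13.6% hold GAGGAAG. *Hpgds* and *Ptgs2* each hold TTGCNNAA, found in 10.8% of windows, and *Alox5* and *Ptgs2* each hold GGGCGG, found in 35.7%. RefSeq windows were held for 8 of the 10 genes, without *Alox5ap* and *Cysltr1*. Among the other 4, *Ptgs1* holds GAGGAAG, *Ptgdr2* GGGCGG, *Cysltr2* TTCNNNNGAA, and *Lta4h* none of the 8 motifs. These are matches of letters only.

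The first question was how the pathway differed between OVA-induced and normal lung in WT mice. *Alox5ap*, *Ltc4s* and *Hpgds* were over 2-fold higher after OVA induction, that is 3 of the 10 genes, where 8.99% of the 19023 genes with at least 10 counts were. None was over 2-fold lower, against 5.2% of all genes, but *Cysltr2*, at -0.99, was at -1.12 in TPM and beyond 2-fold also with total counts and thinned counts. In TPM and without the length trend 1 of the 3, *Hpgds*, was over 2-fold higher: *Alox5ap* was at 0.95 and 0.94 and *Ltc4s* at 0.84 and 0.83. Of the 19023 genes, 1273 were over 2-fold higher in TPM and 1621 without the length trend, against 1710 with TMM. *Alox5*, *Ptgs1* and *Lta4h* were higher by less, and *Ptgs2* and *Cysltr2* were lower. All 10 genes passed the minimum of 10 counts in each of the 4 comparisons. Intervals lay wholly above 0 for 6 of the 10 and wholly below 0 for 2, against 29.2% and 27.4% of all genes tested. Whether an interval excludes 0 depends on the count, and interval shares here and below are not matched for count. The median log2FC of the 10 was 0.37 (8 above 0 and 2 below), against 0.004 over all genes. In TPM it was 0.20 (6 above and 4 below), against -0.16 over all genes.

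The leukotriene route is given first, from the enzyme that starts it. *Alox5*, on chromosome 6 (116410077 to 116461178, minus strand, GENCODE M21 on GRCm38), had 396 counts in normal and 648 in OVA-induced WT lung, and 290 and 414 in Rab44-KO lung. The OVA-induced WT library was high and the normal Rab44-KO library low, while normal WT and OVA-induced Rab44-KO had overlapping intervals. OVA-induced over normal, the log2FC of *Alox5* was 0.70 [0.52 to 0.88] in WT and 0.42 [0.20 to 0.64] in Rab44-KO lung.

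*Alox5ap*, on chromosome 5 (149264767 to 149288153, plus strand), encodes the membrane protein that hands arachidonic acid to 5-lipoxygenase. It had 703 and 619 counts in the normal WT and Rab44-KO libraries, and 1549 and 1025 in the OVA-induced ones. Both OVA-induced libraries were above both normal ones, and the OVA-induced WT library was highest. With OVA induction its log2FC was 1.13 [0.998 to 1.26] in WT and 0.63 [0.49 to 0.78] in Rab44-KO lung.

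At the branch point, *Ltc4s*, which makes the parent cysteinyl leukotriene, stood out in 1 library. *Ltc4s*, on chromosome 11 (50236461 to 50238616, minus strand), had 128, 134, 262 and 147 counts. The OVA-induced WT library was high, and the other 3 had overlapping intervals. Its log2FC for OVA induction was 1.02 [0.71 to 1.34] in WT and 0.04 [-0.31 to 0.39] in Rab44-KO lung. *Lta4h*, which competes for the same substrate to make leukotriene B4, lies on chromosome 10 (93453411 to 93484875, plus strand) and had 1280, 1107, 1655 and 1396 counts. In WT lung its OVA difference was smaller than that of *Ltc4s*, with a log2FC of 0.36 [0.25 to 0.46], and in Rab44-KO lung it was 0.24 [0.12 to 0.35], above the value of *Ltc4s*. Of the counts of these 2 enzymes together, *Ltc4s* took 9.09% [7.64 to 10.7] in normal and 13.7% [12.2 to 15.3] in OVA-induced WT lung, and 10.8% [9.13 to 12.7] and 9.53% [8.11 to 11.1] in Rab44-KO lung. The share does not depend on library scaling, and its interval in the OVA-induced WT library lay above those of normal WT and OVA-induced Rab44-KO and overlapped that of normal Rab44-KO.

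The receptors for cysteinyl leukotrienes did not follow the enzymes. *Cysltr1*, on chromosome X (106574346 to 106603679, minus strand), is the target of the montelukast class of asthma drugs. It had 136, 163, 146 and 142 counts, with log2FC for OVA induction of 0.09 [-0.26 to 0.44] in WT and -0.29 [-0.63 to 0.04] in Rab44-KO lung, and the sign of the WT value turns in TPM (-0.08). *Cysltr2*, on chromosome 14 (73025603 to 73049114, minus strand), is the second receptor, found on endothelial cells among others. It had 164, 97, 83 and 104 counts, so that the normal WT library was high and the other 3 had overlapping intervals. OVA-induced over normal, *Cysltr2* was at -0.99 [-1.39 to -0.61] in WT and 0.01 [-0.41 to 0.42] in Rab44-KO lung. Only 1.68% of the 13575 genes with at least 100 counts had a lower WT value than *Cysltr2*. The summed CPM of the 5 endothelial markers was 2514, 2518, 2207 and 2981. Their part in the result was not tested.

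**Figure D2:**
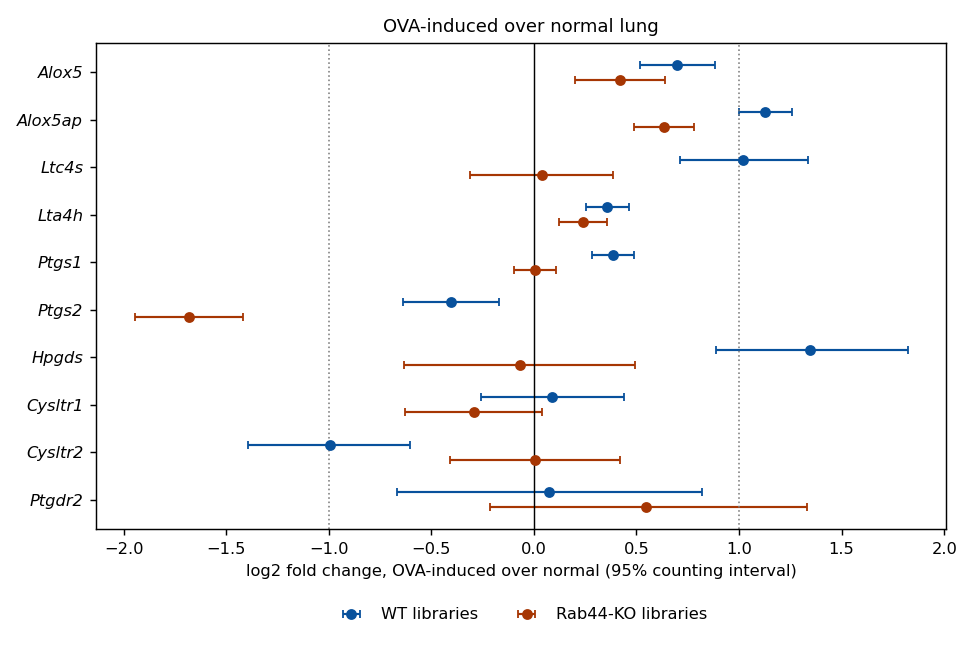
Log2FC of OVA-induced over normal lung (x axis) for each of the 10 genes, in the WT libraries (blue) and the Rab44-KO libraries (brown). Bars are 95% counting intervals from single libraries, and dotted lines mark 2-fold. *Hpgds* and *Ltc4s* lie at 1.34 and 1.02 in WT and near 0 in Rab44-KO lung, while *Ptgs2* lies at -0.40 and -1.68.

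In the prostaglandin branch, the constitutive and the inducible cyclooxygenase differed in direction. *Ptgs1*, on chromosome 2 (36230426 to 36252272, plus strand), had 1406, 1451, 1852 and 1556 counts. The OVA response of *Ptgs1* was a log2FC of 0.39 [0.28 to 0.49] in WT and 0.01 [-0.10 to 0.11] in Rab44-KO lung, but in TPM these were 0.21 and 0.13. *Ptgs2*, on chromosome 1 (150100031 to 150108227, plus strand), had 353, 483, 269 and 161 counts. The 4 libraries were all apart in their intervals, with normal Rab44-KO highest and OVA-induced Rab44-KO lowest. That of *Ptgs2* was -0.40 [-0.64 to -0.17] in WT and -1.68 [-1.95 to -1.42] in Rab44-KO lung, a 3.21-fold lower level in the second. *Ptgs2* was the 1 gene of the 10 over 2-fold lower after OVA induction in Rab44-KO lung, where 3.85% of the 19073 genes with at least 10 counts were, and none of the 10 was over 2-fold higher, against 6.44%. In those libraries the intervals of 3 genes (*Alox5*, *Alox5ap* and *Lta4h*) lay above 0 and that of *Ptgs2* below, against 25.4% and 26.6% of all genes. Of the 13484 genes with at least 100 counts, 0.222% had a lower value than *Ptgs2*.

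The balance of the 2 cyclooxygenases moved with these counts. Of the counts of both, *Ptgs2* took 20.1% [18.2 to 22.0] in normal and 12.7% [11.3 to 14.2] in OVA-induced WT lung, and 24.97% [23.1 to 27.0] and 9.38% [8.04 to 10.9] in Rab44-KO lung. Intervals of all 4 shares were apart. Per length, the TPM of *Ptgs1* was 2.69 times that of *Ptgs2* in normal Rab44-KO and 8.64 times in OVA-induced Rab44-KO lung.

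*Ptgs2* is an immediate-early gene of many cells, so other such genes are given beside it. The list of 8 (*Fos*, *Fosb*, *Egr1*, *Junb*, *Atf3*, *Ier2*, *Dusp1*, *Nr4a1*) was added after the values of *Ptgs2* were seen. Their summed CPM was 629, 1155, 513 and 1208, so both Rab44-KO libraries were above both WT ones. In normal lung, Rab44-KO over WT, *Fos* had 3226 against 1360 counts, and all 8 genes had intervals above 0, as had *Ptgs2*, where 14.6% of all genes had. After OVA induction 7 of the 8 had intervals above 0, Rab44-KO over WT, against 29.7% of all genes, *Fos* with 1802 against 533 counts, while *Ptgs2* and *Atf3* (182 against 381 counts) were lower. Their part in the *Ptgs2* values was not tested.

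*Hpgds*, on chromosome 6 (65117293 to 65144908, minus strand), makes prostaglandin D2 in mast cells, Th2 cells and macrophages. It had 55 and 55 counts in the normal WT and Rab44-KO libraries, and 141 and 56 in the OVA-induced ones. The OVA-induced WT library was high and the other 3 were alike in their counts. Its log2FC for OVA induction was 1.34 [0.89 to 1.82] in WT, the highest of the 10, and -0.07 [-0.63 to 0.49] in Rab44-KO lung. Of the counts of *Hpgds* and *Ptges*, which makes prostaglandin E2 from the same substrate, *Hpgds* took 7.12% [5.41 to 9.17], 7.25% [5.51 to 9.33], 12.9% [10.99 to 15.1] and 7.94% [6.06 to 10.2], so the OVA-induced WT share was apart from the others.

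*Ptgdr2*, the chemotactic receptor for prostaglandin D2 on Th2 cells, eosinophils and basophils, lies on chromosome 19 (10937160 to 10942511, plus strand) and had the fewest counts of the 10, at 32, 25, 34 and 39. Its log2FC for OVA induction was 0.07 [-0.67 to 0.82] in WT and 0.54 [-0.21 to 1.33] in Rab44-KO lung, so neither difference was detectable at this depth. Its exons share 1031 bases with *Ccdc86* on the opposite strand (169, 158, 260 and 190 counts), and the strand setting of the counting is not stated, so reads of the 2 genes may not have been fully separated. *Alox5ap*, *Ltc4s* and *Ptgs1* overlap antisense or opposite-strand transcripts over 189, 268 and 148 exonic bases, and these transcripts have no entry of their own in the table used here.

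**Figure D3:**
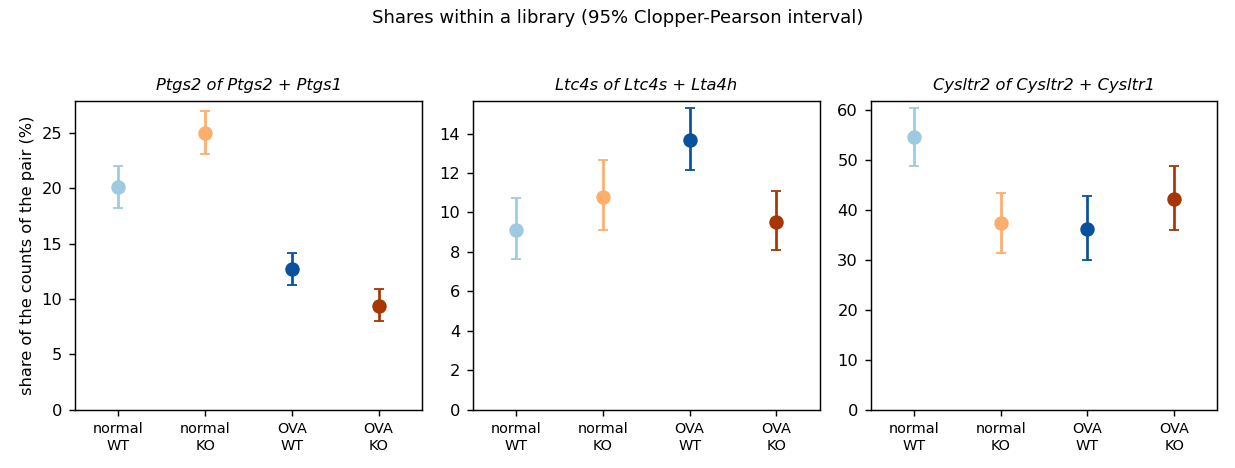
Share of *Ptgs2*, *Ltc4s* and *Cysltr2* among the counts of each named pair (y axis, percent, from 0) in the 4 libraries, with 95% Clopper-Pearson intervals. *Ptgs2* takes 24.97% of the cyclooxygenase counts in normal Rab44-KO and 9.38% in OVA-induced Rab44-KO lung, and *Ltc4s* takes its highest share, 13.7%, in OVA-induced WT lung.

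The second question was whether the genotypes differed under normal conditions. None of the 10 genes was over 2-fold higher or lower in the Rab44-KO library, where 2.77% and 2.0% of the 18718 genes with at least 10 counts were. *Ptgs2* was higher, with a log2FC of 0.53 [0.32 to 0.73], and *Cysltr2* was lower, at -0.68 [-1.06 to -0.31]. These 2 were outside the middle 95% of the 13166 genes with at least 100 counts, which ran from -0.40 to 0.46: 98.2% of those genes had a lower value than *Ptgs2* and 0.296% a lower value than *Cysltr2*. *Alox5* was lower at -0.38 [-0.60 to -0.15]. *Lta4h* (-0.14 [-0.25 to -0.02]) and *Ptgs1* (0.12 [0.01 to 0.23]) had small values with intervals that exclude 0, so 2 of the 10 lay above 0 and 3 below, against 14.6% and 14.8% of all genes. Intervals of *Alox5ap*, *Ltc4s*, *Hpgds*, *Cysltr1* and *Ptgdr2* included 0. *Cysltr2* took 54.7% [48.8 to 60.4] of the counts of both cysteinyl leukotriene receptors in normal WT and 37.3% [31.4 to 43.5] in normal Rab44-KO lung.

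The third question was whether the genotypes differed after OVA induction. *Hpgds* was 2.54-fold lower in the Rab44-KO library, and it was the 1 gene of the 10 over 2-fold lower, where 7.34% of the 19259 genes with at least 10 counts were. No member was over 2-fold higher, against 8.4% of all genes. Its log2FC was -1.34 [-1.82 to -0.89], lower than that of all but 2.16% of the 13704 genes with at least 100 counts, and it was -0.98 in TPM. *Ltc4s* (-0.84 [-1.14 to -0.55]), *Ptgs2* (-0.75 [-1.04 to -0.46]), *Alox5* (-0.66 [-0.84 to -0.48]) and *Alox5ap* (-0.61 [-0.72 to -0.49]) were lower by less than 2-fold. *Ptgs1* (-0.26 [-0.36 to -0.16]) and *Lta4h* (-0.26 [-0.36 to -0.15]) were lower by little, and their sign turns in TPM, to 0.07 each. Intervals lay below 0 for 7 of the 10 genes and above 0 for none, against 33.8% and 29.7% of all genes, which are not matched for count. *Cysltr1* (-0.05 [-0.39 to 0.29], and 0.27 in TPM), *Cysltr2* (0.32 [-0.11 to 0.75]) and *Ptgdr2* (0.19 [-0.51 to 0.90]) had intervals that include 0.

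**Figure D4:**
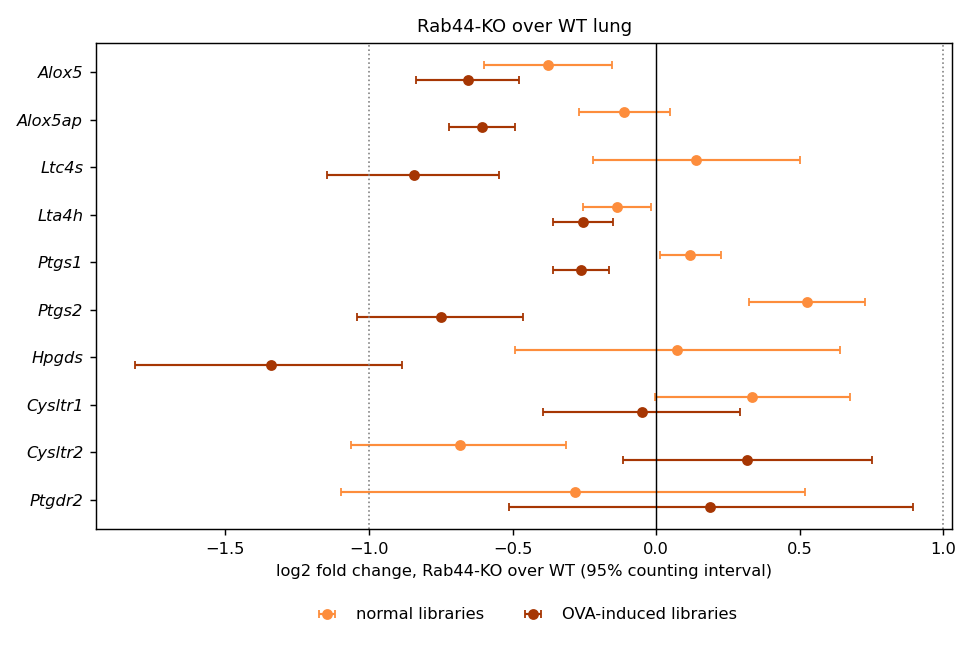
Log2FC of Rab44-KO over WT lung (x axis) for each of the 10 genes in the normal libraries (light) and the OVA-induced libraries (dark), with 95% counting intervals from single libraries and dotted lines at 2-fold. *Ptgs2* lies at 0.53 in normal and -0.75 in OVA-induced lung, and *Hpgds* at 0.07 and -1.34. In TPM the OVA-induced values lie 0.33 higher, which turns the sign of *Lta4h*, *Ptgs1* and *Cysltr1*.

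Scaling bears on this comparison more than on the others, because TPM shifts every ratio of OVA-induced Rab44-KO over OVA-induced WT by 0.33. Over all genes, 1617 were over 2-fold higher and 1413 lower with TMM, and 2602 higher and 777 lower in TPM. Among the 10 genes, 8 had values below 0 with TMM and 5 in TPM, with medians of -0.43 and -0.11. Medians over all genes were -0.02 and 0.29. Gene length bears on it too: after subtraction of the length trend, *Alox5ap* was at -0.14 and *Ltc4s* at -0.37, both shorter genes (1103 and 764 bases behind TPM), *Lta4h* was at 0.04, and *Hpgds* and *Ptgs2* were at -1.34 and -0.73.

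The difference between the genotype values of both conditions was computed from the same 4 counts, with a Wald counting interval. It was -1.41 [-2.11 to -0.71] for *Hpgds*, -1.28 [-1.62 to -0.93] for *Ptgs2*, -0.98 [-1.44 to -0.53] for *Ltc4s*, -0.49 [-0.69 to -0.30] for *Alox5ap*, -0.38 [-0.52 to -0.24] for *Ptgs1* and 0.999 [0.45 to 1.55] for *Cysltr2*. Those of *Ptgs1* and *Alox5ap* depended on the scaling: *Ptgs1* was at -0.079 in TPM and *Alox5ap* at -0.086 without the length trend, each less than its counting error of 0.144 and 0.193 (the half-width of its interval). The values of *Hpgds*, *Ptgs2*, *Ltc4s* and *Cysltr2* exceeded theirs under both. Intervals of *Alox5*, *Lta4h*, *Cysltr1* and *Ptgdr2* included 0 with TMM, though *Lta4h* in TPM (0.18) and *Cysltr1* without the length trend (-0.52) were beyond their half-widths. Neighbouring comparisons share libraries: the OVA-induced WT library is in both its OVA response and the OVA-induced genotype comparison, so a high value of *Hpgds* there gives 1.34 in the first and -1.34 in the second.

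Cell type markers also differed between the libraries, and not all in the pattern of the members. Of the 6 lung markers, the surfactant gene *Sftpc* had 181126 counts in OVA-induced Rab44-KO against 361981 in OVA-induced WT lung (2.01-fold lower), and the alveolar type I gene *Ager* 19434 against 31705 (log2FC -0.72). The other lung markers were at -0.19 (*Sftpb*), -0.10 (*Cldn5*), 0.09 (*Foxj1*) and 0.14 (*Scgb1a1*, the most abundant, without which the lung sum was 18439, 17817, 23893 and 13449 CPM). From normal WT to OVA-induced WT lung, summed CPM went from 696 to 5821 for 8 alveolar macrophage markers (mostly *Chil3*, with 6811 and 101647 counts, and from 341 to 573 CPM without it), from 542 to 1045 for 8 markers of monocytes and monocyte-derived macrophages, from 28.3 to 114 for 7 eosinophil markers, from 100.0 to 539 for 8 neutrophil markers, and from 32.6 to 76.0 for 5 T cell markers. Not all alveolar macrophage markers moved alike: *Fabp1* had 87, 87, 31 and 116 counts and *Car4* 3929, 3047, 3723 and 2307. In OVA-induced Rab44-KO lung the macrophage and monocyte sums were 1184 (267 without *Chil3*) and 636, eosinophils 28.3, T cells 39.3, and neutrophils 682, above the OVA-induced WT value. Of the defining eosinophil markers, *Epx* had 0, 0, 1 and 0 counts, *Prg2* 1, 9, 185 and 48, and *Ccr3* 114, 153, 490 and 94. Mast cell markers summed to 233, 279, 170 and 238 CPM, led by *Kit*. Without *Kit* the order turned, with 7.97, 5.59, 11.4 and 6.21 CPM and the OVA-induced WT library highest. Mast cell carboxypeptidase *Cpa3* had 59, 35, 128 and 79 counts, *Mcpt4* 20, 25, 1 and 8, *Cma1* 35, 23, 27 and 4, and *Tpsb2* 4, 9, 10 and 1. The 8 Th2 and ILC2 markers summed to 28.3, 26.1, 42.0 and 22.3 CPM (12.3, 15.3, 30.1 and 16.8 without *Gata3*), the 5 basophil markers to 128, 122, 101 and 225 (mostly *Gata2*, with *Mcpt8* at 15 counts or fewer; without *Gata2* 1.198, 0.603, 2.43 and 1.59, now highest in OVA-induced WT lung), 4 B cell markers to 134, 97.8, 277 and 178, 5 smooth muscle markers to 781, 756, 895 and 819, and 8 tuft cell markers to 9.95, 10.7, 25.8 and 17.95, 2 of the 8 being at 0 in every library. Platelet markers, of a cell rich in *Ptgs1*, summed to 59.6, 34.96, 46.4 and 90.5 CPM over 6 genes. The part of all these lists in the values of *Alox5*, *Alox5ap*, *Ltc4s*, *Ptgs1* and *Hpgds* was not tested.

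The rest of the pathway was described by a list of 52 other genes, all found in the table. After OVA induction in WT lung, 45 passed 10 counts, 12 of them were over 2-fold higher and 1 lower, where 8.99% and 5.2% of all genes were. Of the 12, *Pla2g4c*, *Pla2g5*, *Alox12e*, *Ptgdr* and *Ltb4r2* passed the minimum through the OVA-induced library alone, so their direction follows from the filter. The median of the 45 was 0.36 against 0.004 over all genes, and in TPM 0.19 against -0.16. Among those with at least 100 counts, the largest differences were in *Pla2g4c*, a phospholipase A2 gene (4 to 106 counts, log2FC 4.67), *Alox15*, the 12/15-lipoxygenase (131 to 942, 2.83), *Cyp4f18*, which inactivates leukotriene B4 (292 to 1205, 2.03), *Ltb4r1*, the high-affinity leukotriene B4 receptor (55 to 196, 1.82), and *Ptgir*, the prostacyclin receptor (174 to 547, 1.64). *Pla2g4c* and *Ltb4r1* reached 100 counts through the OVA-induced library alone, so their direction follows from that limit. The 1 lower gene was *Ptgfr*, the prostaglandin F receptor (509 to 177, -1.54), named after its values were seen. So were *Alox12e*, a lipoxygenase gene with 5, 9, 67 and 1 counts, and *Ptgdr*, the other prostaglandin D2 receptor, with 0, 3, 31 and 3 counts. *Ptgdr* was 10.2-fold higher in OVA-induced than normal WT lung with its 0 counts set to a floor of 3. That is a set value and not the end of a counting interval. With *Ptgdr* at that value the median of the list was again 0.36.

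Between the OVA-induced libraries, Rab44-KO over WT, 45 of the 52 passed, none was over 2-fold higher and 11 were lower, where 8.4% and 7.34% of all genes were. In TPM 3 were higher (*Alox12*, *Ptgfr* and *Fpr2*) and 8 lower, *Ptger4*, *Tbxa2r* and *Tbxas1* falling inside the limit. Of the 19259 genes tested, 2602 were higher and 777 lower in TPM, against 1617 and 1413 with TMM. Of the 11, *Pla2g5*, *Pla2g2e*, *Alox12e* and *Ptgdr* passed the minimum through the OVA-induced WT library alone, so their direction follows from the filter. The median of the 45 was -0.43 against -0.02 over all genes, and in TPM -0.11 against 0.29. *Pla2g4c* had 10 against 106 counts (-3.40), *Alox15* 190 against 942 (-2.32), *Ptgir* 156 against 547 (-1.82), *Ptger4*, a prostaglandin E2 receptor, 102 against 235 (-1.21) and *Tbxa2r*, the thromboxane receptor, 74 against 161 (-1.13). These had to reach 100 counts, which *Pla2g4c* and *Tbxa2r* did in the OVA-induced WT library alone, so their direction follows from that limit. *Alox15* is also in the eosinophil list. In normal lung, 40 passed and *Ggt1*, which trims leukotriene C4 to D4, was the 1 gene over 2-fold higher in Rab44-KO (101 against 42 counts, 1.34), with none lower, against 2.77% and 2.0% of all genes, and a median of 0.06. After OVA induction in Rab44-KO lung, 41 passed, 2 were over 2-fold higher and 2 lower, against 6.44% and 3.85% of all genes, with a median of -0.05 against -0.008 over all genes, and of 0.07 against 0.11 in TPM. *Alox12*, the platelet-type 12-lipoxygenase (143 to 331, 1.11), and *Cyp4f18* (343 to 738, 1.01) were higher, and *Tbxa2r* (163 to 74, -1.23) was lower. Here *Tbxa2r* reached 100 counts in the normal library alone, so its direction follows from that limit.

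**Figure D5:**
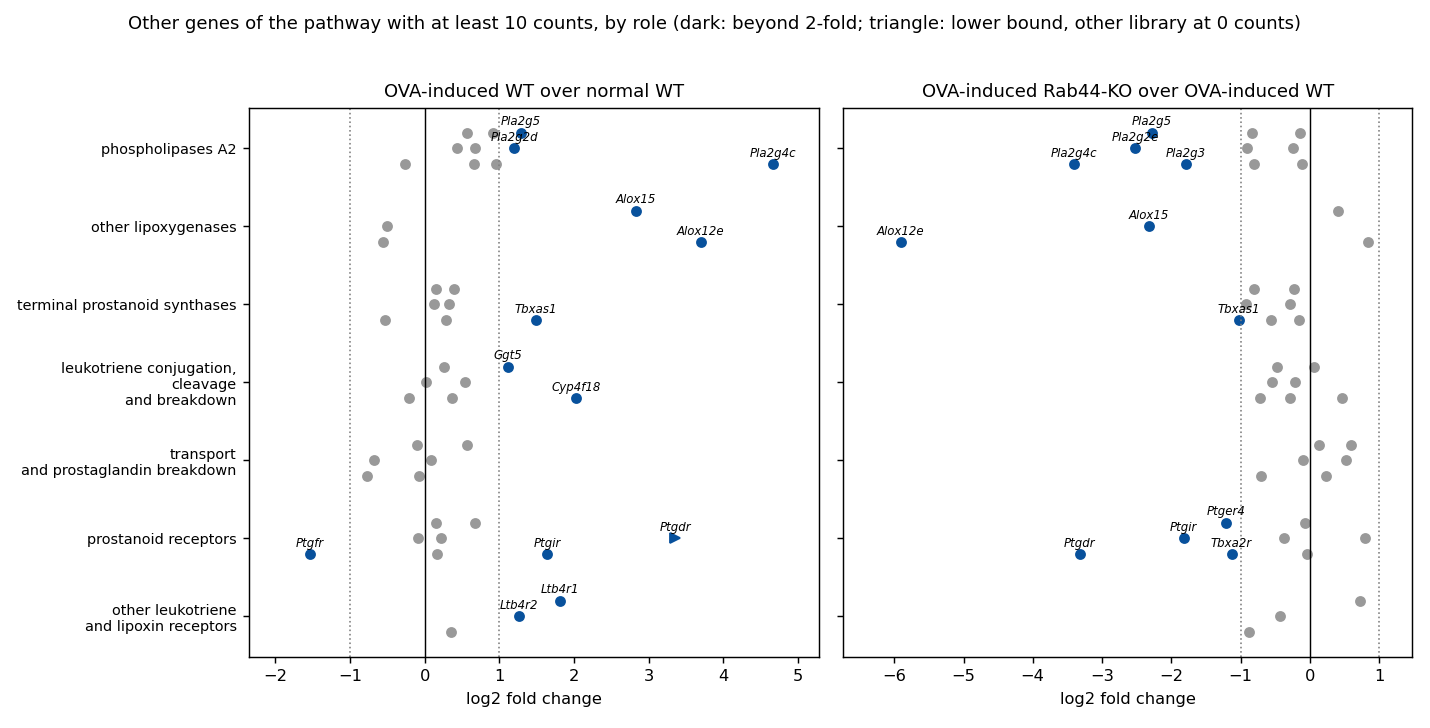
Log2FC (x axis) of the other pathway genes with at least 10 counts, by role (y axis), for OVA-induced WT over normal WT lung (left) and OVA-induced Rab44-KO over OVA-induced WT lung (right). Each point is 1 gene in 1 pair of libraries, dark and named beyond 2-fold. The triangle is a gene at 0 counts in normal WT lung, with that value set to a floor of 3 counts. On the left 12 genes lie beyond 2-fold higher and 1 lower, and on the right none higher and 11 lower, where values in TPM lie 0.33 higher.

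Genes with the nearest pattern over the 4 libraries were found by the distance between centred log2 CPM among 13899 genes with at least 100 counts in their highest library. For *Hpgds* they were *Noxo1*, *Psap* (20197, 20324, 50866 and 21715 counts), a lysosomal protein gene, and *Cd3g* (148, 149, 378 and 161), a T cell receptor subunit. For *Ltc4s* they were *Pbld2*, *Tbc1d10c* and *Tk1*, for *Alox5ap* the leukocyte signalling genes *Map4k1*, *Was* and *Samsn1*, and for *Alox5* *Ect2*, *Tifab* and *Frmd7*, all at distances under 0.12. *Ptgs2* was nearest to *Iigp1*, an interferon-induced GTPase (1244, 1747, 1043 and 592 counts, distance 0.10), and next to *Zbtb16* (1447, 2415, 1389 and 663, distance 0.31). *Lta4h* was nearest to *Slc38a7*, *Ptgs1* to *Gltp*, *Cysltr1* to *Tars3* and *Cysltr2* to *4930486L24Rik*. Each likeness rests on 4 points a gene.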

How the data were processed

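Lung RNA of 4 groups was sequenced as 1 library each with a directional kit and 150-base paired-end reads. After trimming, the authors used HISAT2 for alignment (GRCm38) and featureCounts for gene counts, deposited as raw counts. Versions, strand setting and the handling of reads with several matches are not given in the sources used here. The authors also deposited TPM, which over 15583 genes equalled the counts divided by a fixed length of the gene and by a factor of the library. The processing notes name DESeq2 for the authors' tests.

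Counts were scaled by TMM in edgeR 4.0.16 (R 4.3.3), with factors from 0.973 to 1.02, and analysed with Python 3.11.15, numpy 2.4.6, pandas 2.3.3, scipy 1.17.1 and matplotlib 3.10.9. DESeq2 1.42.0 gave size factors as an alternative. The log2FC used a prior count of 0.125 and a minimum of 10 counts in the higher of both libraries. A pair of libraries leaves no residual degree of freedom. An additive fit over all 4 would leave 1, by assuming no difference between conditions in the genotype effect, and was not run, so no p-value is given. Intervals for ratios (Clopper-Pearson) and CPM (Poisson) are at 95% and cover counting error only. Steps were tested on simulated data.

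The members and gene lists were chosen with earlier results of these data known. All 10 members are named, with at most the 5 other pathway genes per comparison that have at least 100 counts and the largest log2FC beyond 1, the 3 nearest genes by pattern where the member reaches 100 counts, and the first markers of each list. One listed gene was found by its Entrez ID. Members shared no 150-base transcript window with another gene. Positions are from GENCODE M21 and promoters from RefSeq (GRCm38.p6).

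Alternatives to the scaling were DESeq2 size factors, no factor beyond total counts, TMM without immunoglobulin genes or on the pair compared, TPM (pseudocount 0.1), and subtraction of the length trend. A prior count of 2, minimums of 1 and 50 counts, equal depth by thinning, a log2FC limit of 2 and intervals wholly past 2-fold were also tried. Sums of markers without the most abundant gene, and the differences between conditions in TPM and without the length trend, were added after the data were seen.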

Additional observations from a re-analysis of the deposited data

Results flagged for a closer look

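Some genotype differences had opposite signs in both conditions, with counting intervals on opposite sides of 0. The difference between conditions, computed from the 4 counts, has a counting interval that excludes 0 for each of these genes, from -2.18 [-2.56 to -1.79] for *Ptgir* to 1.62 [1.22 to 2.01] for *Alox12*. In TPM that of *Ptgs1* was -0.079, inside its counting error. Each rests on single libraries, so it was not tested over replicates. Rab44-KO over WT, the log2FC was 0.53 in normal and -0.75 in OVA-induced lung for *Ptgs2*, and 0.12 and -0.26 for *Ptgs1*, whose second value is 0.07 in TPM. Among the other pathway genes, it was 0.75 and -0.91 for *Pla2g2d*, 0.40 and -0.24 (0.09 in TPM) for *Pla2g6*, 0.31 and -0.72 for *Cyp4f18*, 0.36 and -1.82 for *Ptgir*, and 0.61 and -0.43 for *Ltb4r1*. For *Ltb4r1* the second value was -0.11 in TPM and -0.08 without the length trend. The order was the other way for *Alox12*, at -0.77 and 0.85, and for *Hpgd*, the prostaglandin-degrading dehydrogenase, at -0.072 and 0.13. All 6 platelet markers were also lower in normal and higher in OVA-induced lung, with medians of -0.89 and 0.98. Their part in the *Alox12* values was not tested.

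For other genes the OVA response had opposite signs in the genotypes, again not tested over replicates and with the difference's counting interval excluding 0 for each. OVA-induced over normal, the log2FC in WT and Rab44-KO lung was -0.50 and 1.11 for *Alox12*, 0.39 and -0.21 for *Ptges*, 0.33 and -0.63 for *Akr1b3*, 0.67 and -0.73 for *Ptger4*, and 1.64 and -0.54 for *Ptgir*. In TPM the Rab44-KO value of *Ptges* was -0.09. Of the 6 platelet markers, 5 were lower in WT and 6 higher in Rab44-KO lung, with medians of -0.43 and 1.60, and their part in *Alox12* was not tested. *Akr1b3* shares 5.93% of its 150-base transcript windows with pseudogenes.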

How the results depend on the processing

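No paired analysis was possible because each group has 1 library, and for the same reason no replicate could be left out. Of 396 values of the 10 genes under 10 alternatives, 378 stayed inside their counting interval and 18 did not, 11 of them in TPM and 7 without the length trend. For the other pathway genes, 1595 of 1686 stayed inside and 91 did not. No value over 2-fold changed sign.

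Counts over 2-fold depended on the limit. Shares of all genes above a log2FC of 2 or by intervals beyond 2-fold were not computed, so counts at those limits have no share beside them. For Rab44-KO over WT in OVA-induced lung, members lower went from 1 to 0 in TPM, above a log2FC of 2 and for intervals beyond 2-fold. Other pathway genes lower were 6 above a log2FC of 2, 5 by intervals and 7 at 50 counts. Of all genes, 777 were lower in TPM and 791 at 50 counts, against 1413 with TMM. Those higher were 3 in TPM, 1 at 1 count and 2 without the length trend, where 2602, 4404 and 1738 of all genes were. The median of the other pathway genes was -0.11 in TPM, against 0.29 over all genes. For OVA induction in WT, members higher were 1 in TPM, 1 without the length trend, 0 above a log2FC of 2 and 0 by intervals, and members lower were 1 (*Cysltr2*) with total counts, in TPM and with thinned counts. Of all genes, 1273 were higher in TPM and 1621 without the length trend. With total counts, in TPM and with thinned counts, 1076, 1102 and 958 of all genes were lower. Other genes higher were 5 and lower 0 above a log2FC of 2, and lower 2 at 1 count, where 3325 of all genes were. For OVA induction in Rab44-KO, members lower were 0 above a log2FC of 2. Other genes, higher and lower, were 4 and 6 at 1 count, and 0 and 0 above a log2FC of 2 or by intervals, and those lower were 1 in TPM and 1 at 50 counts. Of all genes, 3937 were higher and 3136 lower at 1 count, and 481 were lower in TPM and 285 at 50 counts. In normal lung, other genes higher and lower were 6 and 2 at 1 count, and those higher were 0 above a log2FC of 2 or by intervals. At 1 count, 3068 of all genes were higher and 2521 lower. Other causes than the limits and the shift of TPM were not tested.

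One library per group leaves the spread between mice unknown. Depth limits *Ptgdr2* and *Hpgds* most.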
